A study of Homo sapiens with 6 samples.

Results

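The MYC, MAX and MXD network is the set of basic helix-loop-helix leucine zipper genes formed by MAX and its partners. The partners each pair with MAX and compete for the same DNA element. Its 10 members here are MYC, MYCN, MYCL, MAX, MXD1, MXI1, MXD3, MXD4, MNT and MGA. They were chosen by gene symbol, 10 of 20610 symbols in the deposited count table, and all 10 were found. Polyadenylated RNA was sequenced from HT1080, an established human fibrosarcoma line, in 3 libraries of cells in which PGK1 was disrupted with CRISPR-Cas9 (KO) and 3 libraries of wild-type cells (WT). PGK1 encodes the glycolytic enzyme phosphoglycerate kinase 1. No drug, time or second genotype is given for either group, and all 6 libraries carry one batch label. Neither clonality of the KO cells nor separate cultures within a group is stated in the labels, so the p-values refer to library-to-library spread, which could be technical alone.

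MYC proteins bind DNA as heterodimers with MAX and recruit acetyltransferases and elongation factors, and their targets include genes of ribosome assembly, nucleotide synthesis and the cell cycle. MXD1, MXI1 (also called MXD2), MXD3, MXD4 and MNT bind the same element with MAX but recruit the SIN3 corepressor with its histone deacetylases. MGA, a very large protein with a second DNA-binding domain, also pairs with MAX and belongs to the Polycomb complex PRC1.6. MAX is thus the shared partner, and the balance between MYC and the MXD and MNT proteins is the classic readout of the network.

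The library totals ran from 30175903 to 43890830 counts in KO and from 39150295 to 47047186 counts in WT, so that after scaling 1 count was worth 0.0209 to 0.0315 CPM (counts scaled to a common library size). PGK1 was at 149, 151 and 165 CPM in the KO libraries, against 1447, 1427 and 1407 CPM in the WT libraries (log2 fold change -3.20, SE 0.061, adjusted p = 5.13e-15, edgeR quasi-likelihood test). Of 13249 genes tested, 76.4% passed an adjusted p of 0.05 in this comparison, 40.0% of tested genes higher and 36.3% lower in KO. Of the called genes 52.4% were higher under this scaling (TMM), which became 63.6% when libraries were scaled by their totals alone. The 3 KO libraries did not overlap the 3 WT libraries in CPM for 79.2% of tested genes. KO library 3 stood furthest from its group. Of 515 protein-coding genes of chromosome 20 in the table, 259 had no count in any library, so values from that chromosome were not read as expression, and no network member lies on it. Mesenchymal markers were lower in KO: 5 of 6 were tested, all 5 fell, THY1 was near 0 in both groups, and their summed level was 3343 to 3957 CPM in KO against 12690 to 13200 CPM in WT. The 6 epithelial markers summed to 4.19 to 5.03 CPM in KO and 1.47 to 2.53 CPM in WT, with CDH1 and ESRP1 higher, CLDN4 lower and EPCAM and KRT5 at 0 throughout. The 6 blood markers summed to 2.22 to 2.34 CPM in KO and 0.115 to 0.368 CPM in WT, where SPI1 alone passed the filter. The part of these shifts in the results below was not tested.

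The element that the network reads is the E-box CACGTG, which is its own reverse complement. RefSeq promoter windows, from 250 bases before to 50 after the annotated start (GRCh38.p14), were available for 9 of the 10 members, and MYC was not matched. CACGTG occurred in 2 of these 9, MNT and MXD4, and in 7.44% of 27305 promoter windows of the same length. Among the 10373 windows of tested genes the share was 10.05%. CACGTG also occurred in MLX, the partner of a parallel branch, and in a larger share of MYC target windows, counted below, of which 4 genes named there are shown. The 30-base stretches are shown because they hold the site that MYC and MXD proteins compete for, with the E-box in capitals and the gene's own strand written 5′ to 3′.
MNT: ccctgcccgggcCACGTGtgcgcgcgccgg
MXD4: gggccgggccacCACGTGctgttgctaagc
MLX: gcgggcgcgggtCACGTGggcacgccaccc
WDR43: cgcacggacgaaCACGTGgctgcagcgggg
BYSL: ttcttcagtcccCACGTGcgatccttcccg
PLK1: cccaggctatccCACGTGttcgggcgtccg
LDHA: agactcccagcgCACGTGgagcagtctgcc
The MNT stretch is chr17:2401236-2401265 on the minus strand, with the E-box 193 bases before the start. In MXD4 it is chr4:2262330-2262359 on the minus strand, 238 bases before the start, and in MLX chr17:42567038-42567067 on the plus strand, 50 bases before it. The WDR43 and BYSL stretches, chr2:28894658-28894687 and chr6:41921515-41921544, lie on the plus strand with the E-box 3 and 28 bases after the start. Those of PLK1 (chr16:23678679-23678708) and LDHA (chr11:18394366-18394395) lie on the plus strand 198 and 185 bases before it, and the LDHA window holds 2 copies, of which the first is shown. A match in these windows is a description of the letters and does not show binding.

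Of the 10 members, 9 passed the filter on low counts and MYCN did not. All 9 passed the test, where 76.4% of all tested genes did, so a call by itself is close to the background here. MYC, MYCL, MAX, MXD1 and MGA rose in KO (5 of 9, against 40.0% of all tested genes), and MXI1, MXD3, MXD4 and MNT fell (4 of 9, against 36.3%). None of the 9 overlapped between the groups, as for 79.2% of all tested genes. MYCL, MXD1, MXI1 and MGA also differed at least 2-fold (4 of 9, against 31.0% of all tested genes). The split did not follow the division into activators and repressors, since MXD1 moved with MYC and against the other 3 MXD genes. The directions of all 9 were kept under each of the 18 other settings tried. MXD3 was past the threshold in 14 of the 18 and the other 8 members in all 18.

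**Figure D1:**
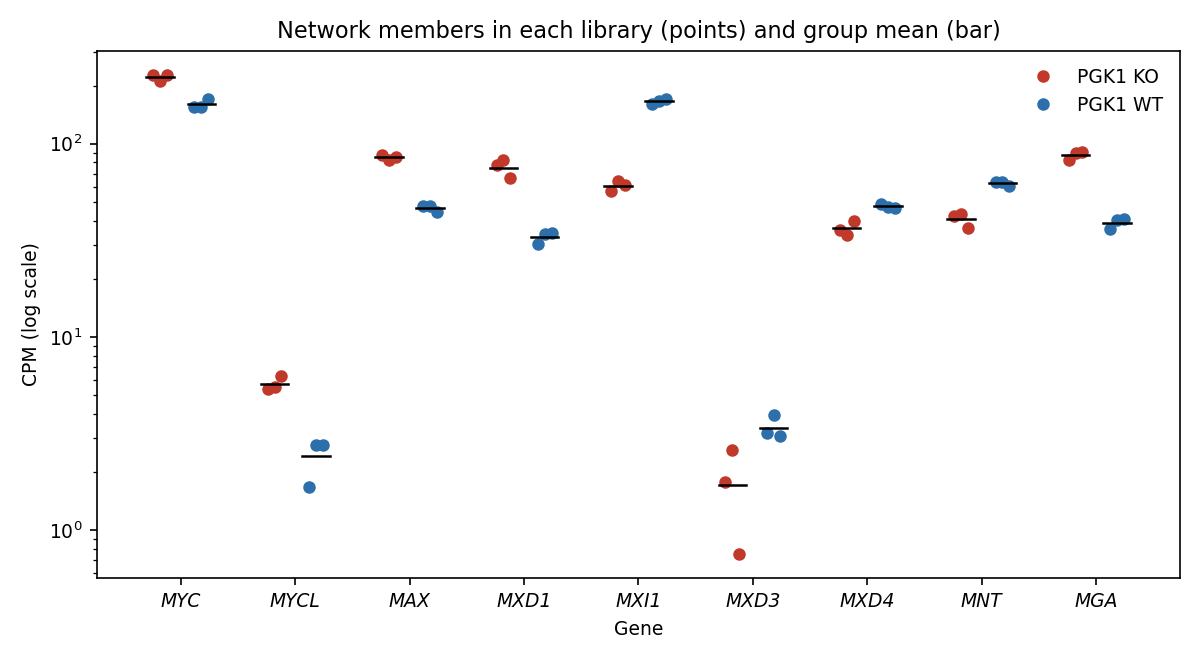
Level of the 9 tested members in CPM (log scale), with PGK1 KO libraries in red left of the WT libraries in blue, 1 point per library and a bar at the group mean. MYC, MYCL, MAX, MXD1 and MGA lie higher in all KO libraries, MXI1, MXD3, MXD4 and MNT lower, and KO library 3 is lowest for MXD3 at 0.756 CPM.

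MYC (chr8:127735434-127742951), the proto-oncogene and the most abundant paralog here, was moderately higher in KO. It had 227, 212 and 228 CPM in the KO libraries, against 155, 155 and 170 CPM in the WT libraries. All KO libraries lay above the highest WT library. The means were 222 ± 8.65 CPM in KO and 160.0 ± 8.72 CPM in WT (SD, n = 3 each), a 1.39-fold difference (log2 0.47, SE 0.055, adjusted p = 1.56e-06, edgeR). By size of change MYC ranked 8108 of 13249 genes, so most tested genes changed by more. With library size alone as the scaling its log2 difference was 0.70, while the median of all tested genes moved by 0.22 in the same direction. In bulk RNA, fewer cells of a type and less RNA per cell cannot be told apart, which holds for every member.

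MYCL (chr1:39895428-39901917), a paralog best known from lung cancer, was low in both groups and higher in KO. It had 5.41, 5.51 and 6.30 CPM in KO, against 1.68, 2.77 and 2.78 CPM in WT, from 200 to 259 counts per KO library and 64 to 121 per WT library. The lowest WT value was that of library 1, and without it the log2 difference was 1.03 in place of 1.25 (SE 0.205, adjusted p = 5.85e-05, edgeR). MYCN (chr2:15940550-15947004), the neuroblastoma paralog, was close to absent. It had 2 counts in KO library 1 and 0 in each of the other 5 libraries, where 0 counts allow a level of up to 0.0688 to 0.0945 CPM (counting error only). In FPKM, which divides by gene length, MYC made up 96.0 to 96.5% of the 3 paralogs in KO and 97.3 to 98.4% in WT.

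MAX (chr14:65006101-65102695), the obligate partner of the network, rose more than MYC. It had 87.8, 82.8 and 85.3 CPM in KO, against 47.6, 47.9 and 44.1 CPM in WT. The libraries within each group were close, and the means of 85.3 ± 2.46 CPM in KO and 46.5 ± 2.12 CPM in WT (SD, n = 3 each) differed 1.83-fold (log2 0.87, SE 0.059, adjusted p = 3.95e-09, edgeR). The ratio of MYC to MAX within a library does not depend on the scaling between libraries. In FPKM it was 0.834, 0.827 and 0.862 in the KO libraries, against 1.05, 1.04 and 1.25 in the WT libraries, so the ratio was lower in each KO library even though MYC itself was higher.

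MXI1 and MXD1 moved in opposite directions. MXI1 (chr10:110207605-110287365), which is known to be induced by hypoxia-inducible factors, had 56.8, 63.8 and 61.1 CPM in KO, against 161, 166 and 170 CPM in WT. The KO mean of 60.6 ± 3.55 CPM was 36.5% of the WT mean of 165.7 ± 4.75 CPM (SD, n = 3 each). The difference of -1.45 on the log2 scale (SE 0.057, adjusted p = 9.72e-12, edgeR) was the largest among the 9 tested members by absolute size under TMM, but not with library size alone, where MXI1 had -1.23 and MYCL, MXD1 and MGA had 1.47, 1.42 and 1.38. MXD1 (chr2:69915109-69942945), the founding member of the family and best known for its rise as cells leave the cycle and differentiate, moved the other way. It had 77.8, 82.0 and 66.1 CPM in KO, against 30.2, 33.9 and 34.6 CPM in WT, 2.29 times the WT mean (log2 1.195, SE 0.083, adjusted p = 8.19e-09, edgeR). The KO library furthest from the others, library 3, was the lowest of the 3 KO libraries, and without it the log2 fold change was 1.23. Within a library the FPKM of MXD1 was 0.798, 0.748 and 0.630 of that of MXI1 in KO, against 0.109, 0.119 and 0.118 in WT. An annotated exon of SNRNP27, on the same strand, overlaps MXD1, and SNRNP27 was at 41.5 CPM in KO and 32.0 CPM in WT. How shared bases were counted is not given in the sources used here.

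MXD3 and MXD4 were lower by less certain or smaller amounts. MXD3 (chr5:177305499-177312752), which is expressed in proliferating cells, had 1.77, 2.60 and 0.756 CPM in KO, against 3.18, 3.94 and 3.08 CPM in WT. It rested on 24 to 95 counts per KO library, with library 3 the lowest. Its log2 fold change was -0.98 (SE 0.338, adjusted p = 0.0200, edgeR). The call was lost with library size alone (-0.75, adjusted p = 0.0778), and without WT library 2 (-0.87, adjusted p = 0.0721). Exons of RAB24 on the same strand and of PRELID1 on the opposite strand overlap MXD3. RAB24, which encodes a small GTPase, had log2 -1.32, and PRELID1, of mitochondrial lipid transport, was at 132 CPM in KO and 120.5 CPM in WT. The part of these neighbours in the MXD3 count was not tested. MXD4 (chr4:2247432-2262109) had 35.6, 33.8 and 40.0 CPM in KO, against 49.0, 46.9 and 46.5 CPM in WT. The groups did not overlap, but the difference of -0.38 on the log2 scale (SE 0.072, adjusted p = 0.000217, edgeR) was -0.16 with library size alone (adjusted p = 0.0430).

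MNT and MGA went in opposite directions. MNT (chr17:2384073-2401060), present in cycling and resting cells alike, had 42.3, 43.5 and 36.6 CPM in KO, against 63.4, 63.6 and 60.3 CPM in WT. KO library 3 was again the lowest, and all WT libraries stood clear of the KO libraries (log2 -0.61, SE 0.071, adjusted p = 1.62e-06, edgeR). With library size alone the log2 fold change of MNT was -0.39 (adjusted p = 0.000488). MGA (chr15:41621224-41769940) had 82.7, 89.1 and 90.2 CPM in KO, against 36.3, 40.2 and 40.8 CPM in WT. Its rise of 2.23-fold (log2 1.16, SE 0.065, adjusted p = 4.70e-10, edgeR) had the second smallest p among the members, after MXI1.

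**Figure D2:**
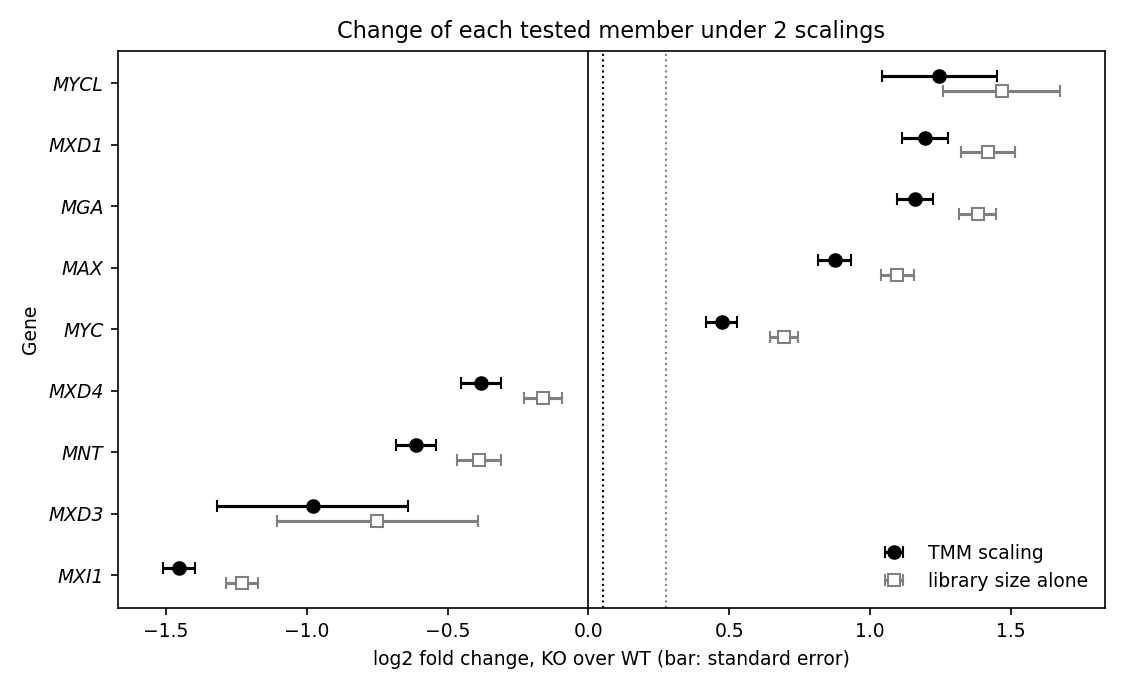
Log2 fold change, KO over WT, of the 9 tested members with TMM scaling (black circles) and with library size alone (open squares), bars giving the standard error. Dotted lines mark the median of all tested genes under each scaling, 0.05 and 0.28, and MXD4 comes closest to 0, at -0.16 with library size alone.

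Levels of different genes were compared in FPKM, which divides by a fixed length per gene and by the library total. In KO the order was MAX at 63.2 ± 2.20 FPKM, MYC at 53.1 ± 1.62, MXI1 at 20.1 ± 1.27, MXD4 at 15.99 ± 1.02, MXD1 at 14.5 ± 1.89, MGA at 9.08 ± 0.367 and MNT at 8.94 ± 0.990 FPKM (SD, n = 3). MXD4 and MXD1 overlapped over the KO libraries, as did MGA and MNT, so their order was not resolved. In WT the order was MXI1 at 47.02 ± 1.55 FPKM, MYC at 32.8 ± 1.88, MAX at 29.5 ± 1.27, MXD4 at 17.9 ± 0.426, MNT at 11.7 ± 0.3198, MXD1 at 5.44 ± 0.412 and MGA at 3.48 ± 0.230 FPKM (SD, n = 3), with no overlap between neighbours. MYCL and MXD3 were at or below 2.23 FPKM in all 6 libraries. By FPKM the highest member was thus MXI1 in WT and MAX in KO, an order that rests on the lengths used. Without division by length MYC was at 222 CPM and MAX at 85.3 CPM in KO. In WT, MXI1 was at 165.7 CPM and MYC at 160.0 CPM. The lengths implied by the authors' FPKM are fixed per gene, from 1459 bases for MAX to 10385 bases for MGA, with 4517 bases for MYC. A change of isoform would not be seen, and whether these lengths match the transcripts present was not tested.

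Set against each other, the MYC paralogs gained on their competitors. Their summed level was 56.7, 53.5 and 55.3 FPKM in KO, against 32.2, 32.6 and 35.8 FPKM in WT. MXD1, MXI1, MXD3, MXD4 and MNT together had 60.2, 63.6 and 57.4 FPKM in KO, against 82.0, 84.2 and 84.5 FPKM in WT. Both sums are scaled by library totals alone. On that scale the MYC paralog sum differed 1.645-fold, whereas MYC itself differed 1.39-fold under TMM. The ratio of the sums within a library does not depend on the scaling between libraries. The ratio of the sums was 0.942, 0.841 and 0.963 in the KO libraries and 0.393, 0.387 and 0.424 in the WT libraries. By FPKM each KO library was at nearly even amounts, and each WT library had clearly more of the MXD genes and MNT than of the MYC paralogs. The ratio within a group depends on the gene lengths used. The means were 0.915 ± 0.0649 in KO and 0.401 ± 0.0199 in WT (SD, n = 3 each), 2.28 times higher in KO. Since the members were chosen with earlier results of these data known, no p-value is given for this ratio. With MGA among the competitors the ratio was 0.796 in KO and 0.385 in WT.

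The makeup of the MXD and MNT pool differed as well. MXI1 supplied 31.5 to 34.3% of its FPKM in KO and 55.4 to 57.4% in WT. MXD1 supplied 21.6 to 25.2% in KO and 6.06 to 6.78% in WT. MXD4 supplied 23.7 to 29.8% in KO and 20.8 to 22.4% in WT, and the MNT share overlapped between the groups (13.6 to 15.5% in KO, 13.4 to 14.4% in WT). All partners of MAX together, MGA included, amounted to 1.91 to 2.03 times the MAX level in KO and 3.91 to 4.41 times in WT. These are transcript amounts, and protein amounts may differ, since MYC protein in particular is short-lived.

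**Figure D3:**
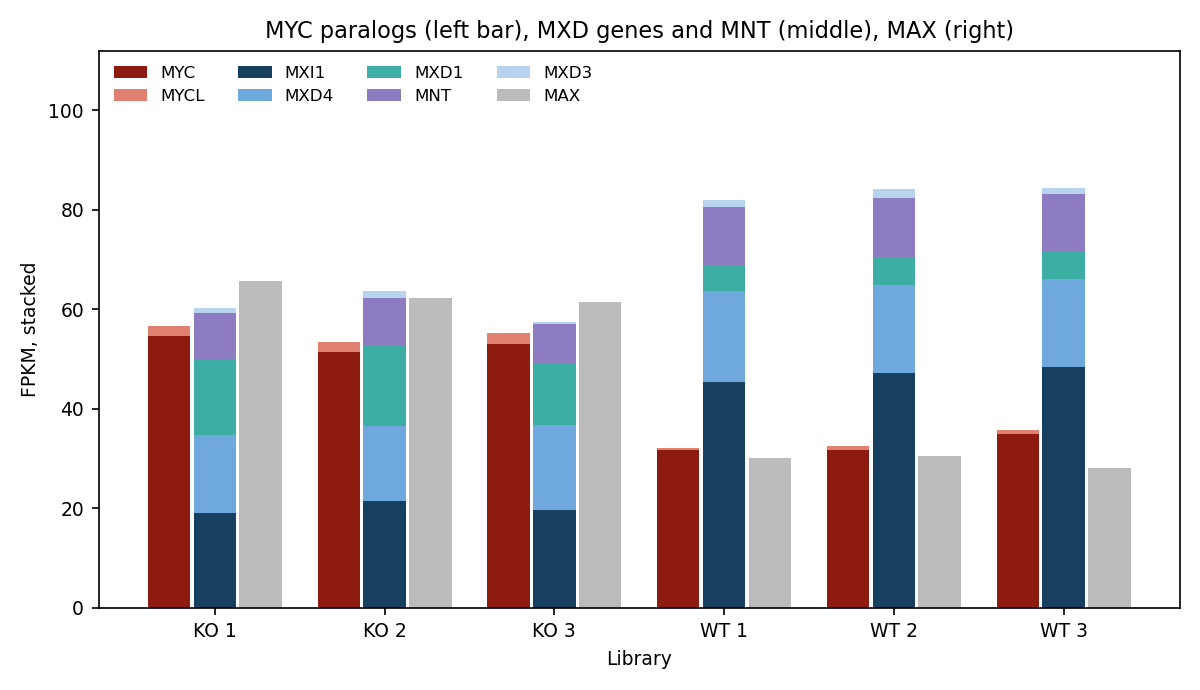
FPKM stacked by gene in each library, KO libraries left of WT libraries: MYC paralogs in the left bar, MXD genes and MNT in the middle bar, MAX in the right bar (MYCN, at most 0.0177 FPKM, is not drawn). The left and middle bars are of similar height in KO (ratio 0.841 to 0.963), and the middle bar is taller in WT (ratio 0.387 to 0.424).

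The MLX branch runs parallel to the network: MLX pairs with MXD1, MXD4 and MNT and with the glucose sensors MLXIP (MondoA) and MLXIPL (ChREBP). MLX fell to 43.9, 46.5 and 45.1 CPM in KO, against 86.7, 82.6 and 88.0 CPM in WT (log2 -0.93, SE 0.058, adjusted p = 1.55e-09, edgeR). The direction of MLX was thus opposite to that of MAX. MLXIP rose slightly, at 110.0 ± 3.06 CPM in KO and 96.4 ± 2.94 CPM in WT (SD, n = 3 each), with a log2 difference of 0.19 (adjusted p = 0.00410, edgeR). MLXIPL had 16 counts over the KO libraries and 32 over the WT libraries and did not pass the test (adjusted p = 0.176, edgeR).

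Genes that MYC proteins work through were mostly higher in KO. Of 18 cofactors, all tested, 13 rose, 3 fell and 2 missed the threshold, where 40.0% of all tested genes rose and 36.3% fell. Their median was 0.46 on the log2 scale, beside 0.05 over all tested genes. The acetyltransferase genes CREBBP and EP300 were at 254 ± 8.02 and 195 ± 16.9 CPM in KO, against 79.1 ± 3.37 and 96.1 ± 2.57 CPM in WT (SD, n = 3 each). CCNT1, the cyclin of the elongation kinase P-TEFb, had log2 0.95, and SMARCB1, of the SWI/SNF remodeller, log2 0.67. Scaling by library size alone gave 14 higher and 0 lower. Among 15 regulators of MYC transcription and mRNA, 11 rose, 3 fell and 1 missed the threshold (median log2 0.39), beside the same 40.0% and 36.3%. TCF7, among the 11 (named after its values were seen), had 138 counts over the KO libraries and 14 over the WT libraries. The filter thus helps to set its call. FUBP1, which binds a far upstream element of MYC, was at 152 ± 5.38 CPM in KO and 63.1 ± 1.96 CPM in WT, and SMAD3, through which TGF-beta lowers MYC in epithelial cells, at 64.8 ± 1.84 CPM in KO and 193 ± 2.17 CPM in WT (SD, n = 3 each). E2F4, a transcription factor that works with RB-family proteins, had log2 0.87, and IGF2BP1, which stabilises MYC mRNA, log2 0.52. For these regulators that scaling gave 12 higher and 1 lower.

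Genes of MYC protein turnover were called in both directions, near the background of 40.0% higher and 36.3% lower. Of 20 listed, 19 were tested, 7 rose, 9 fell and 3 missed the threshold (median log2 0.09). AURKA, on chromosome 20, was listed at 0. GSK3A, one of the kinases that mark MYC for destruction, was at 132 ± 4.16 CPM in KO and 65.3 ± 1.08 CPM in WT, and BTRC, a ubiquitin ligase subunit, at 60.3 ± 3.28 CPM in KO and 30.2 ± 1.09 CPM in WT (SD, n = 3 each). The ligase STUB1 was at 36.4 ± 3.00 CPM in KO and 73.0 ± 1.77 CPM in WT, and the mitotic kinase AURKB at 6.72 ± 0.605 CPM in KO and 31.9 ± 2.21 CPM in WT (SD, n = 3 each). With library size alone the counts were 10 higher and 7 lower, so their order depends on the scaling.

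The corepressors of MXD and MNT proteins and the partners of MGA were called in both directions, as were all tested genes (40.0% higher, 36.3% lower). Of 19 SIN3 and NCOR genes, 9 were called higher, 5 lower and 5 neither (median log2 0.13), and scaling by library size alone gave 11 higher and 3 lower. SAP18 and RBBP4, subunits of the SIN3 complex, had log2 1.05 and 0.85, whereas ING2, another subunit, had -1.68. Of 13 genes of the PRC1.6 complex, 7 were called higher, 4 lower and 2 neither (median log2 0.23), and HDAC1, HDAC2, WDR5 and CBX3 are also in other lists. Its specific subunits L3MBTL2 and E2F6 were at 31.6 ± 1.02 and 43.4 ± 1.41 CPM in KO, against 10.4 ± 0.814 and 16.4 ± 0.994 CPM in WT (SD, n = 3 each). RYBP had log2 1.18, and CBX3, a heterochromatin protein, had -0.71. In mouse cells PRC1.6 keeps meiotic genes silent. Of 30 such genes, 11 passed the filter on low counts, so the list cannot be counted as a whole. Of these 11, 6 were called higher and 1 lower, counts that the filter helps to set. The 6 include RAD21L1 on chromosome 20, where values were not read as expression, and 5 were called higher with that chromosome left out. No count in any library was found for 5 of the 30 (DAZL, SYCP1, TDRD6, SLC25A31 and BRDT). The 30 genes summed to 10.1 to 12.3 CPM in KO and 12.1 to 13.7 CPM in WT, ranges that overlap. The 1 gene called lower, TDRKH of the piRNA pathway, fell to 0.941 ± 0.174 CPM in KO, against 6.37 ± 0.660 CPM in WT (SD, n = 3 each). TDRKH thus made up a large part of the WT sum and a small part of the KO sum. The overlap of the sums therefore says little about the other genes of the list.

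**Figure D4:**
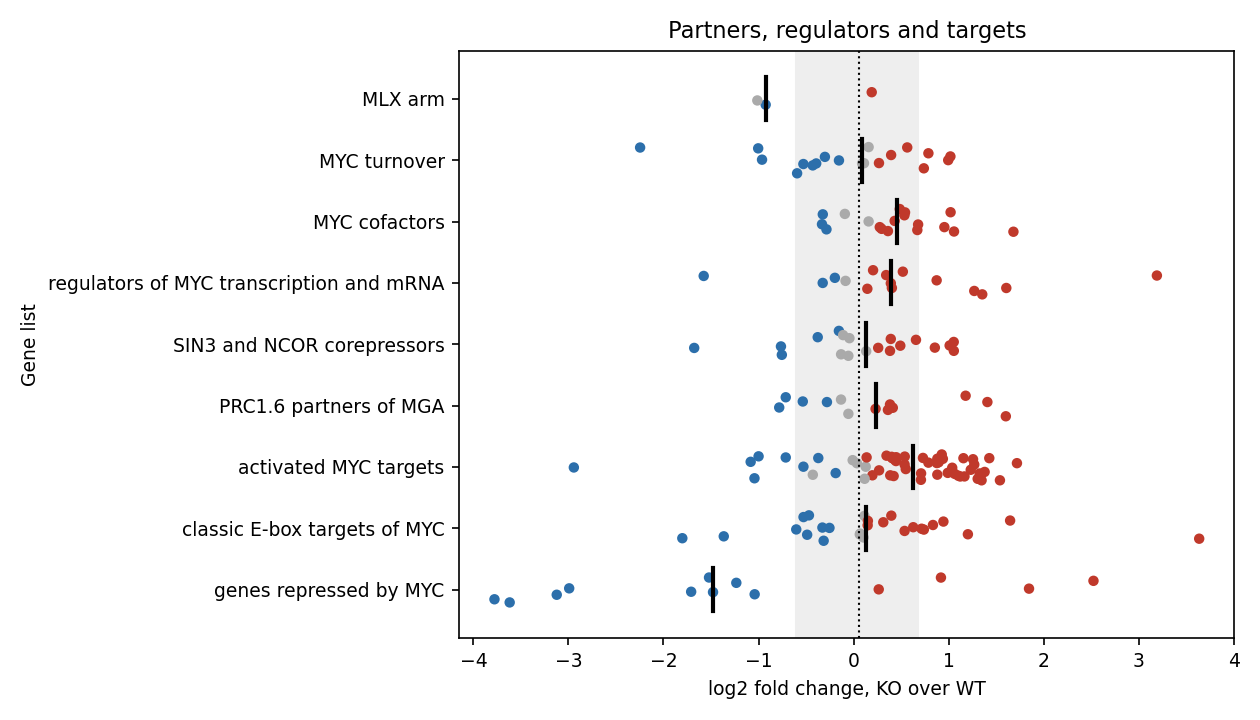
Log2 fold change, KO over WT, of the tested genes of 9 lists, 1 point per gene (red higher, blue lower, grey not past an adjusted p of 0.05), with a bar at the list's median. The dotted line and the grey band mark the median (0.05) and the quartiles (-0.61 and 0.67) of all tested genes. The median of the activated MYC targets (0.63) lies right of the dotted line but within the band. That of the genes repressed by MYC (-1.48) lies left of the band.

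Activated MYC targets, among them many genes of ribosome assembly, were largely higher in KO. Of 58 listed, 56 were tested, and 43 rose, 8 fell and 5 missed the threshold (median log2 0.63), where 40.0% of all tested genes rose and 36.3% fell. DUSP2 and NOP56 had no count in any library, and NOP56 lies on chromosome 20. BYSL, of small ribosomal subunit assembly, was at 102 ± 7.71 CPM in KO and 31.1 ± 0.895 CPM in WT (SD, n = 3 each). WDR43, of the same process, had log2 1.35, and TFB2M, a mitochondrial transcription factor, 1.38. PLK1, a mitotic kinase, fell to 9.41 ± 1.05 CPM in KO, against 72.1 ± 1.40 CPM in WT (SD, n = 3 each). Scaling by library size alone gave 46 higher and 7 lower.

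A second list of 26 classic E-box targets was mixed. In it 13 were called higher, 9 lower and 4 neither (median log2 0.13, beside 40.0% higher and 36.3% lower of all tested genes). Scaling by library size alone gave 17 higher and 6 lower. E2F2, among the 13 (named after its values were seen), had 128 counts over the KO libraries and 10 over the WT libraries. The filter thus helps to set its call. ODC1, the first enzyme of polyamine synthesis, was at 721 ± 48.3 CPM in KO and 230.4 ± 3.02 CPM in WT, and NCL, nucleolin, at 1219 ± 27.7 CPM in KO and 730.6 ± 11.7 CPM in WT (SD, n = 3 each). DKC1, which modifies ribosomal RNA, had log2 0.71. LDHA, a lactate dehydrogenase that hypoxia-inducible factors also control, fell to 511 ± 52.1 CPM in KO, against 1781 ± 10.1 CPM in WT (SD, n = 3 each).

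The 15 genes described as repressed by MYC gave 13 tested, with 4 higher, 9 lower and a median log2 fold change of -1.48. Of all tested genes 40.0% were higher and 36.3% lower, and the list counts were the same with library size alone. This list, like the others, was chosen with earlier results of these data known, so its counts are a description only. THBS1, thrombospondin 1, and NDRG1, a stress-response gene, had -3.62 and -3.12. TXNIP, an arrestin-like brake on glucose uptake that is also the main MLXIP target, was at 188 ± 6.11 CPM in KO and 386 ± 2.72 CPM in WT (SD, n = 3 each). FTH1, the ferritin heavy chain, had log2 1.85. NDRG2, among the 9 lower (named after its values were seen), had 26 counts over the KO libraries and 87 over the WT libraries. The filter thus helps to set its call. NDRG1 is also a hypoxia target and PDGFRB, in this list, also a mesenchymal marker, and what these shared memberships contribute was not tested. CDKN2B had no count in any library, and CDKN1A, the p21 inhibitor (named after its values were seen), had a log2 difference of 0.26 (adjusted p = 0.000272, edgeR).

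The E-box itself occurred in 20 of 47 promoter windows of the activated targets (42.6%) and in 8 of 22 of the classic targets (36.4%), beside 10.05% of 10373 windows of tested genes. Among tested activated targets with a window, the 19 with CACGTG had a median log2 fold change of 0.89, with 15 higher and 2 lower. The 26 without it had a median of 0.63, with 19 higher and 5 lower. Among the classic targets the order of the medians was the other way, at 0.23 for the 8 with CACGTG (5 higher, 3 lower) and 0.27 for the 14 without it (8 higher, 4 lower). The WDR43 and BYSL sites shown above belong to genes that rose, and the PLK1 and LDHA sites to genes that fell, so the element occurred beside changes in both directions.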

How the data were processed

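The authors deposited whole-number read counts per gene symbol and a table of FPKM values for the same 6 libraries (3 KO, 3 WT). Per the submitters' processing notes, fastp, HISAT and the build hg38 were used, while no source used here gives versions, the counting tool, annotation or strand setting. The deposited FPKM equal the count divided by library total and a fixed gene length for all 17521 genes with a count (relative tolerance 1e-06), so they are not an independent measurement. Counts were tested with the edgeR 4.0.16 quasi-likelihood test in R 4.3.3 (TMM, filterByExpr, robust, group as the only term, Benjamini-Hochberg over all 13249 genes that passed, threshold 0.05), and the code was tested on simulated data. CPM use library totals times TMM factors (1.05 to 1.10 in KO, 0.921 to 0.929 in WT), and FPKM use totals alone. Gene positions are those of RefSeq for GRCh38.p14, and overlaps of exons those of GENCODE. Alternatives were other scalings, filters and dispersion, a replicate block, each library left out, DESeq2 1.42.0, limma 3.58.1 (voom, and on log2(FPKM + 1) and log2(FPKM + 0.1)), and, chosen after seeing the data, a fit without chromosome 20. The members and lists were chosen with earlier results of these data known. The rule named all members and PGK1, up to 4 genes per list with the smallest p (1 of them is not reported here), and the 3 genes most correlated with MYC.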

Additional observations from a re-analysis of the deposited data

How the results depend on the processing

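Counts of changed genes stayed within 1.5 times the reported 10116 under all alternatives, and 9 members were past the threshold in each except those named for MXD3. MXD3 was not called with library size alone (-0.75), limma on log2(FPKM + 1) (-0.44) or on log2(FPKM + 0.1) (-0.83), and ranged from -1.41 to -0.70 with each library left out, losing the call only without WT replicate 2. The share of called genes that were higher was 63.6% with library size alone, beside 52.4%. Replicate numbers did not pair the libraries (correlations of deviations -0.0108, 0.0191 and -0.0329, and no KO library correlated best with its own number); with the replicate block 9986 genes and 9 members were called, and MYC had 0.47. Among 360 list counts recomputed, 14 moved by over 1.5 times. With library size alone and with both FPKM fits, which also scale by totals, the lower counts were 0 for MYC cofactors, 3 for corepressors and 1 for regulators of MYC. Both FPKM fits gave 5 lower for MYC turnover. The germline genes higher were 1 with at least 1 CPM in 3 libraries and 5 without chromosome 20. With each library left out they were 3 to 6 (3 without KO replicate 1 or WT replicate 1). Without division by length, the ratio of MYC paralogs to MXD and MNT was 1.06 in KO and 0.521 in WT, and with MGA added 0.796 in KO. Depth limits MYCN, MLXIPL and the germline genes.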

Other observations

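The 3 genes whose level followed MYC most closely over the 6 libraries, among 10012 genes with a mean of at least 5 CPM, were SELENOT, NDUFAF8 and ARL6, with Pearson r of log2 CPM of 0.9996, 0.997 and 0.997. SELENOT, a selenoprotein of the endoplasmic reticulum, had 96.5, 91.4 and 96.5 CPM in KO, against 71.8, 72.1 and 76.8 CPM in WT. The points share libraries and a large difference between 2 groups, and 3180 genes had r of at least 0.9, so the value is a description only.

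Over all tested genes with a promoter window, 44.0% of the 1042 with CACGTG rose, 33.9% fell and 22.2% did not pass. Of the 9331 without it 39.8% rose, 37.1% fell and 23.1% did not pass. The medians were 0.12 and 0.04 on the log2 scale.

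Other germline genes were at the edge of detection. MOV10L1 had 0.684 ± 0.218 CPM in KO and 0.0538 ± 0.0466 CPM in WT, and SOHLH2 0.552 ± 0.0534 CPM in KO and 0.147 ± 0.115 CPM in WT (SD, n = 3 each). RAD21L1, on chromosome 20, had 49 counts over the KO libraries and 0 over the WT libraries, which was not read as expression.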
